A study of Homo sapiens with 4 samples.

Results

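The DNA replication and licensing genes examined here are 55 genes whose products prepare origins, unwind the template, copy it and reassemble chromatin behind the fork. They were taken by symbol from a list of names whose rule uses no measured value, though the list was drawn up with earlier results of these data known, and all 55 were found among the 16878 genes of each expression table. Expression was measured by RNA-seq of total RNA in PANC-1, an established human pancreatic carcinoma cell line. There were 2 Control libraries and 2 libraries from cells that received small interfering RNA against SIRT1 (siSIRT1), an NAD-dependent protein deacetylase, each made 48 h after transfection. Control cells were also transfected, but the labels do not say with what, and a single siRNA, the most efficient of those the study tested, stands for loss of SIRT1 in a single cell line. Nothing states that the libraries of a group came from separate cultures, so the p-values below measure only the spread between these libraries. The spread used for each gene was partly borrowed from other genes.

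In G1 phase, the origin recognition complex, CDC6 and CDT1 load the MCM2-7 ring onto DNA, and this licenses an origin to fire once. On entry into S phase the kinases CDC7-DBF4 and CDK2 recruit CDC45 and GINS to the ring to form the active helicase, and DNA polymerases alpha, epsilon and delta then copy the strands with the help of the clamp PCNA and its loader RFC. Many of these genes are transcribed together at the boundary of G1 and S phase under control of E2F factors.

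The labels' knockdown was present in the libraries. SIRT1 stood at 10.46 and 10.25 FPKM in Control against 1.80 and 2.05 FPKM in siSIRT1, where FPKM counts the sequenced fragments of a gene per transcript length and per library total. Its difference on the log2(FPKM + 1) scale, on which every difference below is given, was -1.96 with a standard error of 0.11 (limma, adjusted p = 1.33e-05). Depth estimated from the steps between low FPKM values was 8800000 to 9140000 reads per library. The simple epithelial keratins KRT8, KRT18 and KRT19 were at 312.82 FPKM or more in every library, while KRT7, EPCAM and CDH1 stood at 2.89 to 11.21 FPKM. Of these 6 ductal markers, 2 were called higher in siSIRT1, KRT18 (difference 0.26, adjusted p = 0.035) and KRT19 (0.25, adjusted p = 0.0178), and KRT8 had a difference of 0.25 (adjusted p = 0.0513). Of the fibroblast markers, 5 of 6 were matched and summed to 4.22 and 4.18 FPKM in Control against 18.96 and 19.53 FPKM in siSIRT1. Nearly all of this was COL3A1, which rose, and DCN, LUM and COL1A2 were at 0.10 FPKM or less. Among leukocyte markers, CD68, also a lysosomal protein of other cells, was at 62.96 and 60.77 FPKM in Control against 42.34 and 39.09 FPKM in siSIRT1 and was called lower, and PTPRC was at 0.97 to 1.29 FPKM. The 4 endothelial markers summed to 0.89 to 1.2 FPKM. The part of these changes in the results on replication genes was not tested.

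E2F factors bind sites whose core is often spelled TTTCCCGC, TTTCGCGC, TTTGCCGC or TTTGGCGC. These 4 spellings were searched on both strands in RefSeq promoter windows of GRCh38.p14, each of 300 bases from 250 before to 50 after the gene start, where overlapping matches were each counted. A window was present for 49 of the 55 genes. At least 1 spelling was found in 22 of the 49 (44.9%), against 908 of all 27305 windows (3.33%) and 5.55% of the windows of the genes tested for expression. In 19 of the 22 a spelling began between 60 bases before and 10 bases after the start. Below are the windows of the 5 genes with the largest rises that hold a spelling, followed by those of MCM6 and MCM7, 2 subunits of the same ring that moved unequally, and of POLA2, which had the lowest difference of the 55. Capitals mark the spelling on either strand, and each window is given 5′ to 3′ on the strand of its gene.
GINS2: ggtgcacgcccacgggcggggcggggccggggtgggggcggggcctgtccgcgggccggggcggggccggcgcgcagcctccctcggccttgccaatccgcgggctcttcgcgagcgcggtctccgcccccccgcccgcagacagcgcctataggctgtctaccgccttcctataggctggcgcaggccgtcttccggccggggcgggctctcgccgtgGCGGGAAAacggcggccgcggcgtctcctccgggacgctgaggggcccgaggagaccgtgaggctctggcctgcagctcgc
GINS1: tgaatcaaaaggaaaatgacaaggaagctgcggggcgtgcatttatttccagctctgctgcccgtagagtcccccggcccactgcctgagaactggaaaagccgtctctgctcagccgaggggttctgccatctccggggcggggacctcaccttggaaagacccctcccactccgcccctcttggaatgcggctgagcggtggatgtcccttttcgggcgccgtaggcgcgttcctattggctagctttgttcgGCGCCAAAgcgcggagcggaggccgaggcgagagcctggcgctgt
RFC3: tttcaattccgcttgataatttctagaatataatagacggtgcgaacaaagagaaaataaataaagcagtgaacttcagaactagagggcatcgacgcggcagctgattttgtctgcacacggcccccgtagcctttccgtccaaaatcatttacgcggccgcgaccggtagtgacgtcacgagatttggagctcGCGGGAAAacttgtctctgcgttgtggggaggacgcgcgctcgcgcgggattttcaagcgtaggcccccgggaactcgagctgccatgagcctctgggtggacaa
E2F2: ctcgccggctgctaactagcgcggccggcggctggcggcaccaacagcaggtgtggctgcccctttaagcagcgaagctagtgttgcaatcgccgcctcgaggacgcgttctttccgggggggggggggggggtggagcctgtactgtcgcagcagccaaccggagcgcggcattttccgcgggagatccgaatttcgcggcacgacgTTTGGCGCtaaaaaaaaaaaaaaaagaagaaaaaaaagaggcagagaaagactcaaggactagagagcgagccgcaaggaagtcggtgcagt
PCNA: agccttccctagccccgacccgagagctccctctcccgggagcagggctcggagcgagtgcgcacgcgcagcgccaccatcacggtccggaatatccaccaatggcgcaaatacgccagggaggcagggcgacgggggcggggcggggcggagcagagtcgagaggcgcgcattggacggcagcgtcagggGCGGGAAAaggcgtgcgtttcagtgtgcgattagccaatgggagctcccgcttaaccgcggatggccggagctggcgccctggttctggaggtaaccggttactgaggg
MCM6: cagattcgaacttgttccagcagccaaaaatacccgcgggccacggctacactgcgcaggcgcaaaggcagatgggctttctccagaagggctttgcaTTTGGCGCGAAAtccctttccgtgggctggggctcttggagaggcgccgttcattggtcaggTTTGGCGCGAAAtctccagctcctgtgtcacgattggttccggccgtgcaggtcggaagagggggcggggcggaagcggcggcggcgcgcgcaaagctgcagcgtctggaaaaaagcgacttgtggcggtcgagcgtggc
MCM7: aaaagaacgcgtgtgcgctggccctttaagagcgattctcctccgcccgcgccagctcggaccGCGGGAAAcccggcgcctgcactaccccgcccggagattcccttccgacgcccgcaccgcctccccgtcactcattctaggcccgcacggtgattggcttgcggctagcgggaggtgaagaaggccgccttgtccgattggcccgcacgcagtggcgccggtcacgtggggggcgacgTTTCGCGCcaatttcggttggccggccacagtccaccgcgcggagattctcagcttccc
POLA2: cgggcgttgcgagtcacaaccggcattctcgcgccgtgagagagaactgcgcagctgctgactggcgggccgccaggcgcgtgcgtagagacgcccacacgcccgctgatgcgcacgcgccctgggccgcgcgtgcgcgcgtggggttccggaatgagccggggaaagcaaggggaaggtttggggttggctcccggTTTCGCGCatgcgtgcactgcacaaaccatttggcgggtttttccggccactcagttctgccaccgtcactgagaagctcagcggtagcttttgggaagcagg

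The windows lie at chr16:85688905-85689204 (GINS2, minus strand), chr20:25407423-25407722 (GINS1, plus), chr13:33817899-33818198 (RFC3, plus), chr1:23531184-23531483 (E2F2, minus), chr20:5126573-5126872 (PCNA, minus), chr2:135876394-135876693 (MCM6, minus), chr7:100101348-100101647 (MCM7, minus) and chr11:65261712-65262011 (POLA2, plus). In MCM6 the letters TTTGGCGCGAAA occurred in 2 copies, and each copy holds a spelling on both strands. Of the 22 genes with one, 14 (63.6%) were called higher in siSIRT1, with a median difference of 0.35 and a range from -0.17 to 1.04. Of the 27 windows without one, 15 (55.6%) belonged to genes called higher, with a median of 0.24 and a range from -0.08 to 0.87. Over all genes tested, 24.0% were called higher. The letters TTTGAA, the core of the CHR element of many mitotic genes, were in 2 of the 49 windows (4.08%) and in 18 of 25 windows of mitotic genes (72%), against 15.4% of all windows and 9.29% of those of the genes tested. A match of letters is a description and does not show that a factor binds.

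Transcripts of the replication genes were mostly higher in siSIRT1. Of the 55 genes, 33 (60%) were called higher at an adjusted p under 0.05 by limma, and 0 were called lower. At an unadjusted p under 0.05, 36 were higher and 0 lower. Over the 12191 genes tested, 24.0% were called higher and 13.1% lower, so the share called higher was above the background and the share called lower was below it. The median difference was 0.30 over the 55 genes and 0.07 over all genes tested. Differences were positive for 48 of the 55 genes (87.3%), against 60.1% of all genes tested. Both siSIRT1 libraries lay above both Control libraries for 42 of the 55 genes, and both lay below for 3, where the background was 43.8% and 25.2% of genes tested. In bulk RNA, a larger share of cells that express a gene and more transcript per cell cannot be told apart.

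**Figure D1:**
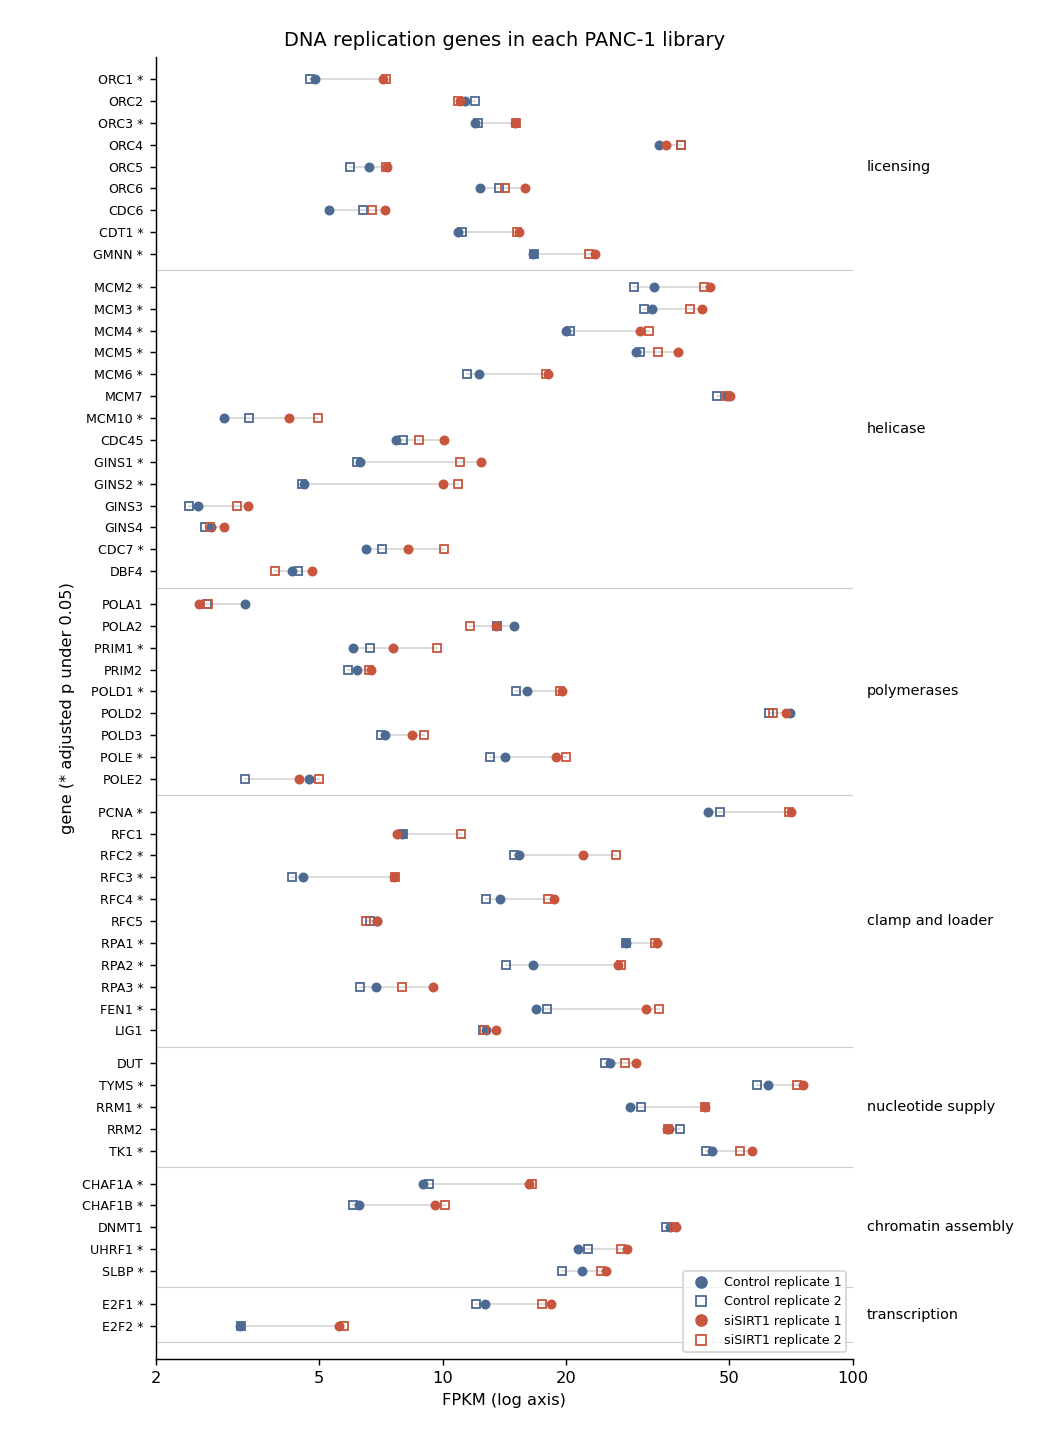
FPKM of the 55 replication genes in each library on a log axis, grouped by role, with filled circles for replicate 1 and open squares for replicate 2 of Control (blue) and siSIRT1 (red), and an asterisk for genes called higher. The red symbols lie to the right of the blue ones for most genes, and ORC2, POLA1, POLA2, POLD2, RFC5 and RRM2 have no red symbol to the right of both blue ones.

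The summed FPKM of the 55 genes was 951.8 and 935.1 in the Control libraries, as opposed to 1196.7 and 1182.2 in siSIRT1, which was 0.237% and 0.235% of the summed FPKM of all genes in Control and 0.281% and 0.289% in siSIRT1. Both siSIRT1 sums lay above both Control sums. The 2 Control libraries differed by a median of 0.075 on the log2(FPKM + 1) scale over the 55 genes, and the 2 siSIRT1 libraries by 0.073. Spearman's rho between the level of a gene in Control and its difference was -0.07 across the 55 genes, given as a description because the genes share the same libraries. Median transcript length was 3121 bases for the 55 genes and 3284 bases for the genes tested, and median GC content was 47.1% and 49.1%. Within the 55, median GC content was 48.6% for those called higher and 44.1% for those not called. With the GC trend of each library removed, 29 of the 55 were called higher and 1, POLA2, lower. Of the 12191 genes tested, 18.9% were then called higher and 2249 genes lower.

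Among the 9 licensing genes, 4 (44.4%) were called higher, against 24.0% of all genes tested, with a median difference of 0.23. ORC1 is the largest subunit of the origin recognition complex and the one best known to vary over the cell cycle. It was at 4.89 and 4.75 FPKM in Control, then 7.14 and 7.26 FPKM in siSIRT1, a difference of 0.50 ± 0.10 (SE, 2 libraries per group, adjusted p = 0.00631). ORC3 was at 12.01 and 12.19 FPKM (Control) and at 15.04 and 15.07 FPKM (siSIRT1), with a difference of 0.29 and an adjusted p of 0.0205. The 2 siSIRT1 libraries lay above both Control libraries for these 2 subunits. The other 4 subunits were not called. ORC4, the most abundant, ranged from 33.71 to 38.22 FPKM with overlapping groups, ORC5 had a difference of 0.19 and ORC6 of 0.19, and ORC2, at 11.32 and 11.98 FPKM in Control against 11.05 and 10.88 FPKM in siSIRT1, had one of -0.08 (95% interval -0.28 to 0.12). ORC4 changed sign under each of 3 other scalings, and ORC3 lost its call under each of them.

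CDT1, which brings the MCM2-7 ring to the origin, stood at 10.89 and 11.15 FPKM in Control against 15.32 and 15.21 FPKM in siSIRT1. GMNN encodes geminin, the inhibitor that binds CDT1 after licensing, and stood at 16.65 and 16.69 FPKM for Control and 23.48 and 22.73 FPKM for siSIRT1. Both rose by a similar amount, 0.44 for CDT1 and 0.45 for GMNN (adjusted p = 0.00367 and 0.0018). The ratio of GMNN to CDT1 on the FPKM scale was 1.53 and 1.5 in Control, then 1.53 and 1.49 in siSIRT1, so the libraries of the 2 groups overlapped in this ratio. CDC6, the ATPase that loads the ring together with CDT1, was at 5.27 and 6.38 FPKM in Control, then 7.25 and 6.71 FPKM in siSIRT1. Its difference of 0.23 did not pass the test (adjusted p = 0.164, 95% interval -0.04 to 0.50).

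The 14 helicase genes gave 9 called higher (64.3%), against 24.0% of all genes tested, and a median difference of 0.38. Within the MCM2-7 ring, the core of the replicative helicase, 5 of 6 subunits were called higher. MCM4 was at 20.01 and 20.43 FPKM (Control) and at 30.32 and 31.86 FPKM (siSIRT1), a difference of 0.60 ± 0.07 (SE, adjusted p = 0.000374). MCM6 was at 12.23 and 11.46 FPKM in Control against 18.08 and 17.90 FPKM in siSIRT1, with a difference of 0.57 ± 0.08. MCM2 was at 32.75 and 29.32 FPKM for Control and 44.97 and 43.49 FPKM for siSIRT1, with a difference of 0.50 ± 0.07. These 3 subunits each rose by between 42.5% and 53.8% in mean FPKM.

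MCM3 was at 32.36 and 30.89 FPKM in Control, then 42.90 and 40.12 FPKM in siSIRT1 (difference 0.38, adjusted p = 0.00294). MCM5 was at 29.55 and 30.23 FPKM (Control) and at 37.57 and 33.48 FPKM (siSIRT1), with a difference of 0.24 (adjusted p = 0.0352), and it lost its call under each of 3 other scalings, with adjusted p up to 0.192 over the alternatives. MCM7, the most abundant of the ring, was at 49.35 and 46.76 FPKM in Control against 50.21 and 49.34 FPKM in siSIRT1. Its groups overlapped, and its difference of 0.05 (95% interval -0.09 to 0.19) turned negative under each of the 3 other scalings. The subunits were more alike in siSIRT1. The highest to the lowest of the 6, MCM7 to MCM6, stood at a ratio of 4.04 and 4.08 in the Control libraries, as opposed to 2.78 and 2.76 in siSIRT1. The ratio of MCM7 to MCM4 was 2.47 and 2.29 in the Control libraries, as opposed to 1.66 and 1.55 in siSIRT1, for which the two-sided exact permutation test over the 4 libraries gave p = 0.333, the smallest it can give with 2 against 2. These subunits had the smallest and the largest difference of the ring. The test gives this p for any ratio whose groups do not overlap, so it adds no support.

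**Figure D2:**
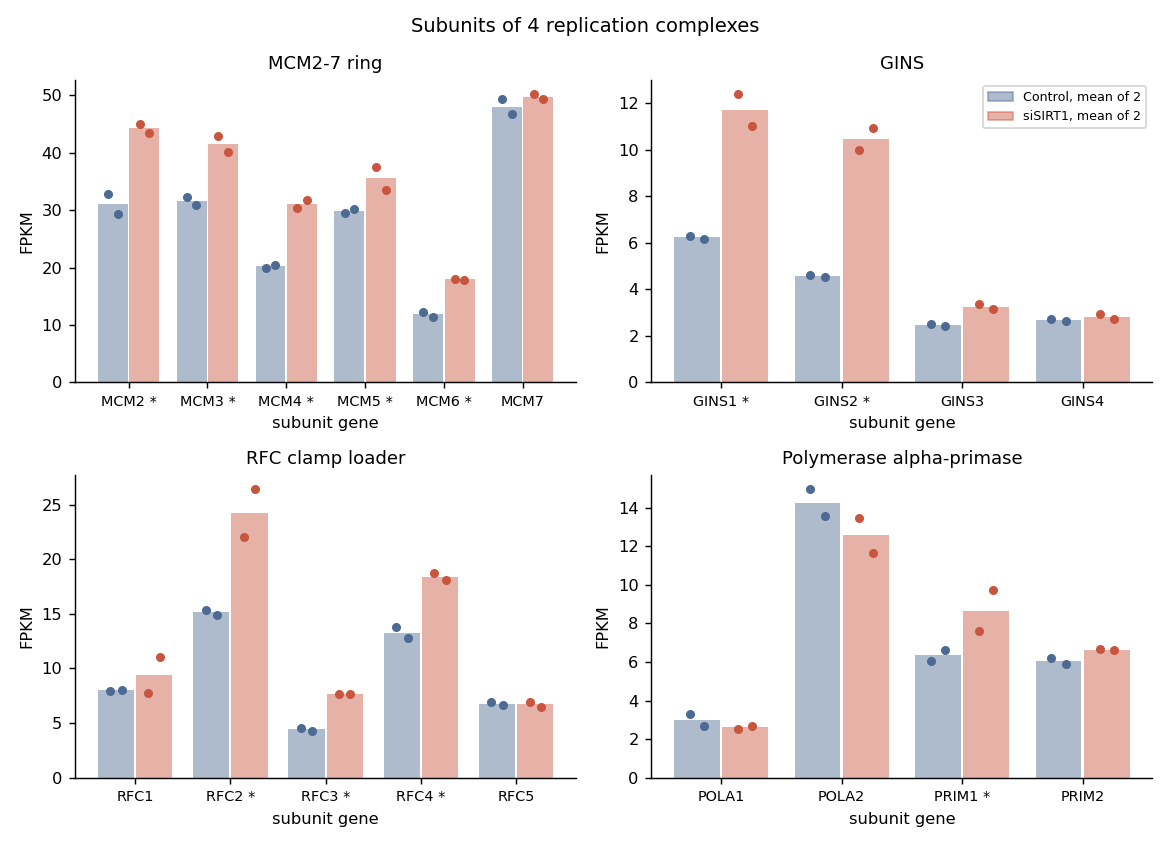
FPKM of the subunits of the MCM2-7 ring, GINS, the RFC clamp loader and DNA polymerase alpha-primase; bars are means of 2 libraries, points are the libraries, and an asterisk marks a subunit called higher. In each complex at least 1 subunit was called higher while at least 1 had overlapping groups, such as MCM7 at 46.76 to 50.21 FPKM and RFC5 at 6.5 to 6.91 FPKM.

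GINS, a complex of 4 small subunits that joins CDC45 and the ring in the active helicase, held the largest rise of the 55. GINS2 was at 4.60 and 4.55 FPKM for Control and 10 and 10.91 FPKM for siSIRT1, a mean FPKM 2.29 times that of Control, with a difference of 1.04 ± 0.10 (SE, adjusted p = 0.000169). GINS1 was at 6.30 and 6.18 FPKM in Control, then 12.38 and 11.02 FPKM in siSIRT1, with a difference of 0.81 ± 0.10 (adjusted p = 0.000493). The groups lay far apart for both subunits compared with the spread between their libraries. GINS3 was at 2.53 and 2.41 FPKM (Control) and at 3.36 and 3.15 FPKM (siSIRT1), and its difference of 0.29 did not pass (adjusted p = 0.0922). GINS4 was at 2.72 and 2.64 FPKM in Control against 2.93 and 2.71 FPKM in siSIRT1, so its groups overlapped, with a 95% interval of the difference from -0.23 to 0.33. The ratio of GINS2 to GINS4 was 1.69 and 1.72 in the Control libraries, as opposed to 3.41 and 4.03 in siSIRT1. Exons of GINS2 overlap those of GSE1 on the other strand, and whether the counting used strand is not stated.

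The remaining helicase genes act when the ring is switched on. MCM10, which helps activate the helicase, was at 2.93 and 3.37 FPKM for Control and 4.22 and 4.98 FPKM for siSIRT1 (difference 0.43, adjusted p = 0.0299). CDC45 was at 7.69 and 8.01 FPKM in Control, then 10.05 and 8.76 FPKM in siSIRT1, and its difference of 0.23 did not pass (adjusted p = 0.113). CDC7, the kinase that phosphorylates the ring, was at 6.5 and 7.11 FPKM (Control) and at 8.23 and 10.06 FPKM (siSIRT1), with a difference of 0.37 (adjusted p = 0.0361). The siSIRT1 libraries lay above Control for these 3 genes. For CDC45 and CDC7, however, the 2 siSIRT1 libraries were farther apart than the lower of them was from the higher Control library. CDC7 lost its call under each of the 3 other scalings, and MCM10 under equal FPKM sums and median-of-ratios scaling. DBF4, the activating subunit of CDC7, was at 4.29 and 4.45 FPKM in Control against 4.8 and 3.91 FPKM in siSIRT1, with a difference of -0.01 (95% interval -0.30 to 0.28) that changed sign without Control replicate 2 or siSIRT1 replicate 2.

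Of the 9 polymerase genes, 3 were called higher, with a median difference of 0.21. Their share of 33.3% was the lowest among the roles, against 24.0% of all genes tested. POLE, the catalytic subunit of the leading strand polymerase epsilon, was at 14.16 and 13.06 FPKM for Control and 18.86 and 19.97 FPKM for siSIRT1 (difference 0.48 ± 0.08, adjusted p = 0.00233). POLD1, the catalytic subunit of the lagging strand polymerase delta, was at 16.07 and 15.13 FPKM in Control, then 19.59 and 19.30 FPKM in siSIRT1 (difference 0.30, adjusted p = 0.0152). PRIM1, the catalytic subunit of primase, was at 6.06 and 6.64 FPKM (Control) and at 7.58 and 9.71 FPKM (siSIRT1), with a difference of 0.38 (adjusted p = 0.0437). Exons of PRIM1 overlap those of NACA on the same strand and of HSD17B6 on the other. Exons of POLD1 also overlap another gene on the same strand. POLE kept its call in all 13 alternative fits. PRIM1 kept its call in 4 of the 13 and lost it under each of the 3 other scalings, and POLD1 kept its call in 9 and lost it under median-of-ratios scaling, quantile normalization and without either Control library, with adjusted p up to 0.198 and 0.151.

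The subunits of polymerase alpha, which extends the primers, were not called in either direction. POLA1, its catalytic subunit, was at 3.30 and 2.67 FPKM in Control against 2.54 and 2.68 FPKM in siSIRT1 (difference -0.14, 95% interval -0.44 to 0.17). POLA2 was at 14.95 and 13.57 FPKM for Control and 13.49 and 11.65 FPKM for siSIRT1 (difference -0.17, 95% interval -0.40 to 0.05, adjusted p = 0.209). The groups overlapped for POLA1 and just parted for POLA2, downward. PRIM2, the other primase subunit, had a difference of 0.12. The accessory subunits POLD3 and POLE2 had differences of 0.25 and 0.21 with adjusted p of 0.0744 and 0.324, and POLD2, the most abundant polymerase gene, ranged from 62.63 to 70.16 FPKM with a difference of 0.00. On the log2(FPKM + 1) scale, POLE2 had the largest gap between the Control libraries of all 55 genes, 0.415, from 4.72 and 3.29 FPKM.

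The clamp, its loader and the genes of lagging strand maturation gave 8 called higher of 11 (72.7%), with a median difference of 0.44. The background was 24.0% of all genes tested. PCNA, the ring that tethers polymerases to DNA, was at 44.32 and 47.55 FPKM in Control, then 70.80 and 69.72 FPKM in siSIRT1, a difference of 0.60 ± 0.06 (SE, adjusted p = 0.000221). FEN1, the flap endonuclease that trims Okazaki fragments, was at 16.85 and 17.93 FPKM (Control) and at 31.40 and 33.78 FPKM (siSIRT1), a difference of 0.87 ± 0.08 (SE, adjusted p = 8.9e-05). Mean FPKM rose by 53% for PCNA and 87.4% for FEN1. LIG1, the ligase that seals the fragments after FEN1 has acted, was at 12.76 and 12.51 FPKM in Control against 13.52 and 12.60 FPKM in siSIRT1, with overlapping groups and a 95% interval of the difference from -0.15 to 0.24. Exons of FEN1 overlap those of FADS2 on the same strand, and PCNA, FEN1, RFC3, RFC5, RPA2 and RPA3 have named pseudogenes, so reads may have been shared with these.

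RFC, the loader that opens PCNA around primed DNA, has 5 subunits, and 3 were called higher. RFC3 was at 4.57 and 4.28 FPKM for Control and 7.63 and 7.67 FPKM for siSIRT1 (difference 0.67 ± 0.10, adjusted p = 0.00155). RFC2 was at 15.37 and 14.92 FPKM in Control, then 22.04 and 26.39 FPKM in siSIRT1 (difference 0.64, adjusted p = 0.00119). RFC4 was at 13.80 and 12.75 FPKM (Control) and at 18.71 and 18.10 FPKM (siSIRT1), with a difference of 0.44 (adjusted p = 0.00338). The groups were apart for all 3. RFC5 was at 6.91 and 6.64 FPKM in Control against 6.91 and 6.5 FPKM in siSIRT1 (difference -0.01, 95% interval -0.25 to 0.22), and RFC1, the large subunit, was at 7.97 and 8 FPKM for Control and 7.72 and 11.06 FPKM for siSIRT1. RFC1 thus had 1 siSIRT1 library below and 1 above Control, and their gap of 0.468 on the log2(FPKM + 1) scale was the largest between siSIRT1 libraries of all 55 genes. Its difference was 0.19 with both, 0.43 without siSIRT1 replicate 1 (adjusted p = 0.0199) and -0.04 without siSIRT1 replicate 2 (adjusted p = 0.76).

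RPA, the complex of 3 subunits that covers single-stranded DNA, had all 3 called higher, to unequal extents. RPA2 was at 16.61 and 14.29 FPKM in Control, then 26.69 and 27.27 FPKM in siSIRT1, a difference of 0.77 ± 0.09 (SE, adjusted p = 0.000311). RPA3 was at 6.88 and 6.27 FPKM (Control) and at 9.49 and 7.96 FPKM (siSIRT1), with a difference of 0.36 (adjusted p = 0.0388). RPA1, the large DNA-binding subunit, was at 27.94 and 28.01 FPKM in Control against 33.28 and 32.98 FPKM in siSIRT1 (difference 0.24, adjusted p = 0.02). The calls of RPA1 and RPA3 were both lost under each of the 3 other scalings, with adjusted p up to 0.15 for RPA1 and 0.213 for RPA3 over the alternatives.

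Of the 5 genes of nucleotide supply, 3 (60%) were called higher, against 24.0% of all genes tested, with a median difference of 0.29. Ribonucleotide reductase, which makes deoxyribonucleotides, is built of a large subunit encoded by RRM1 and a small subunit encoded by RRM2. RRM1 was at 28.66 and 30.45 FPKM for Control and 43.55 and 43.55 FPKM for siSIRT1, a difference of 0.55 ± 0.07 (SE, adjusted p = 0.000433). RRM2, whose product is the one best known to be limited to S phase, was at 35.64 and 37.93 FPKM in Control, then 35.23 and 35.48 FPKM in siSIRT1, a difference of -0.06 (95% interval -0.21 to 0.10, adjusted p = 0.551). RRM2 was the more abundant of the pair in both Control libraries and RRM1 in both siSIRT1 libraries. The ratio of RRM2 to RRM1 was 1.24 and 1.25 in the Control libraries, as opposed to 0.81 and 0.81 in siSIRT1 (exact permutation test, two-sided p = 0.333, the smallest possible).

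TYMS, thymidylate synthase, was at 62.05 and 58.30 FPKM (Control) and at 75.44 and 73.07 FPKM (siSIRT1), with a difference of 0.30 (adjusted p = 0.00583). TK1, the thymidine kinase of the salvage route, was at 45.38 and 43.80 FPKM in Control against 56.81 and 52.99 FPKM in siSIRT1 (difference 0.29, adjusted p = 0.00796). Mean FPKM rose by 23.4% for TYMS and 23.1% for TK1, and the groups did not overlap. DUT, which removes dUTP, was at 25.63 and 24.94 FPKM for Control and 29.63 and 27.91 FPKM for siSIRT1, and its difference of 0.18 did not pass (adjusted p = 0.0749). Exons of TYMS overlap those of ENOSF1 on the other strand, and TYMS, DUT and RRM2 have named pseudogenes.

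Of the 5 genes of chromatin assembly, 4 (80%) were called higher, against 24.0% of all genes tested, with a median difference of 0.32. CHAF1A and CHAF1B encode the large and the middle subunit of CAF-1, which deposits histones on new DNA. CHAF1A was at 8.94 and 9.26 FPKM in Control, then 16.26 and 16.53 FPKM in siSIRT1, a difference of 0.78 ± 0.08 (SE, adjusted p = 0.000244). CHAF1B was at 6.26 and 6.04 FPKM (Control) and at 9.57 and 10.12 FPKM (siSIRT1), a difference of 0.60 ± 0.10 (SE, adjusted p = 0.00185). Mean FPKM thus rose by 80.2% and 60.1%. Exons of CHAF1B overlap those of MORC3 on the same strand. UHRF1, which reads hemimethylated DNA behind the fork, was at 21.39 and 22.67 FPKM in Control against 28.17 and 27.26 FPKM in siSIRT1 (difference 0.32, adjusted p = 0.00833). DNMT1, the maintenance methyltransferase that UHRF1 recruits, was at 35.83 and 35.13 FPKM for Control and 37.04 and 36.59 FPKM for siSIRT1. Its difference of 0.05 (95% interval -0.09 to 0.20) did not pass and turned negative under each of the 3 other scalings. SLBP, which binds the stem-loop of replication-dependent histone mRNAs, was at 21.86 and 19.58 FPKM in Control, then 25 and 24.33 FPKM in siSIRT1 (difference 0.24, adjusted p = 0.0404), and it kept its call in 2 of 13 alternatives.

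Both transcription factor genes were called higher, where the background was 24.0% of all genes tested. E2F1 was at 12.65 and 12.09 FPKM (Control) and at 18.42 and 17.46 FPKM (siSIRT1), a difference of 0.50 ± 0.08 (SE, adjusted p = 0.00178). E2F2 was at 3.21 and 3.23 FPKM in Control against 5.60 and 5.75 FPKM in siSIRT1, a difference of 0.66 ± 0.11 (SE, adjusted p = 0.00224). These 2 factors activate transcription at the start of S phase, and their own windows both hold an E2F spelling.

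**Figure D3:**
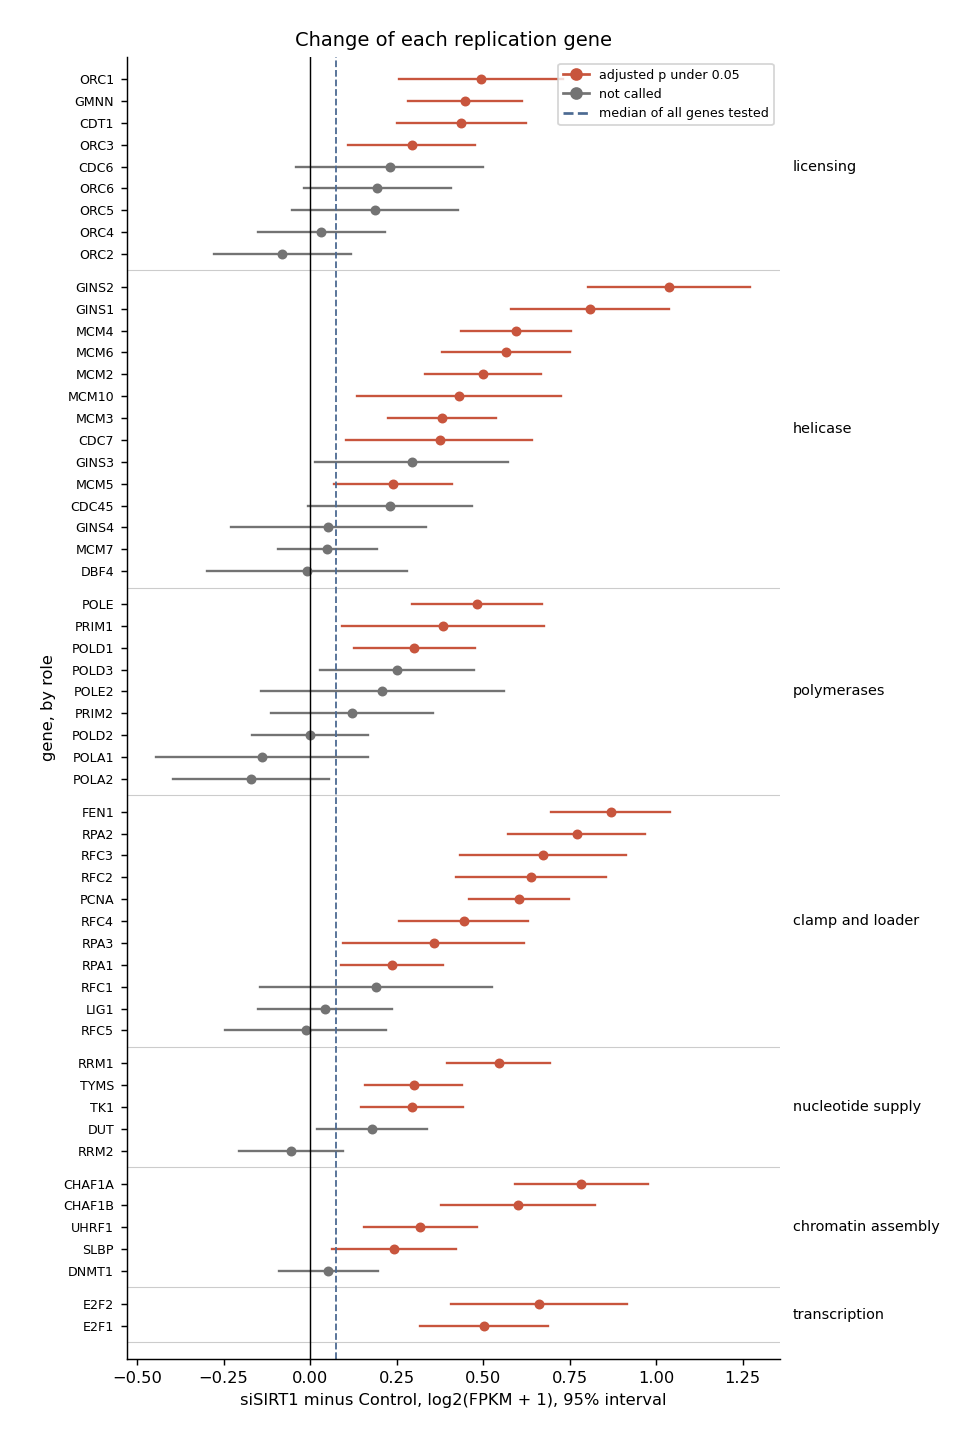
Difference of each replication gene, siSIRT1 minus Control on the log2(FPKM + 1) scale, with its 95% interval from limma, by role and in descending order within a role; red marks genes called higher and the dashed line is the median of all genes tested, 0.07. GINS2 stands at 1.04 and POLA2, the lowest, at -0.17, with no gene called lower.

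Ranked by difference, GINS2, FEN1, GINS1, CHAF1A and RPA2 led the 55 genes, and 14 of them passed 0.5. Of the 33 called, 21 kept the call in all 13 alternative fits, namely ORC1, CDT1, GMNN, MCM2, MCM3, MCM4, MCM6, GINS1, GINS2, POLE, PCNA, RFC2, RFC3, RFC4, RPA2, FEN1, RRM1, CHAF1A, CHAF1B, E2F1 and E2F2. The other 12, ORC3, MCM5, MCM10, CDC7, PRIM1, POLD1, RPA1, RPA3, TYMS, TK1, UHRF1 and SLBP, lost it in at least 1, and each of these 12 lost it without at least 1 library. The count of 33 fell when either Control library was left out, and so did the share of all genes tested that were called higher. The median difference of the 55 genes was then 0.319 without Control replicate 1 and 0.299 without Control replicate 2. Of 28 members with neither a named pseudogene nor an exon that overlaps another gene, 19 were called higher. Of the other 27, 14 were, where the background was 24.0% of all genes tested. Exons of 15 members overlap a gene on the other strand, and those of 6 overlap another gene on the same strand. How reads shared with such copies and neighbours were assigned was given in none of the sources used here.

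With FPKM rescaled by the median of ratios, which brings the median difference of all genes to 0.00, 23 of the 55 (41.8%) were called higher and 0 lower, against 16.6% of genes tested called higher, and the calls over all genes split into 2023 higher and 2053 lower in place of 2930 and 1591. The median difference of the 55 genes was then 0.22. The study's own thresholds, a fold above 1.2 and an unadjusted p below 0.001, were applied to the limma p-values and log2(FPKM + 1) differences. With them, 20 of the 55 were higher and 0 lower, against 11.2% of genes tested higher.

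**Figure D4:**
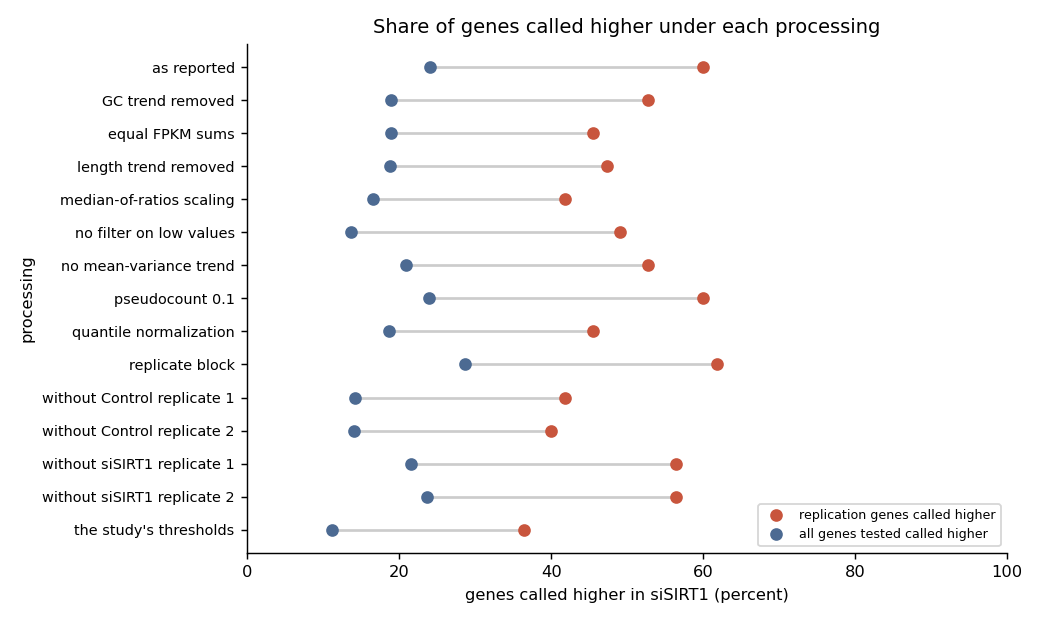
Percent of the 55 replication genes (red) and of all genes tested (blue) called higher in siSIRT1 under each processing. The red points run from 36.4% to 61.8% and the blue points from 11.2% to 28.6%.

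A second list held 65 other genes of the same process, chosen by function from general knowledge. Of these, 28 (43.1%) were called higher and 2 lower, against 24.0% and 13.1% of all genes tested. The median difference was 0.26. The largest rise was that of CDC25A, the phosphatase that activates CDK2, at 1.67 and 1.56 FPKM for Control and 4.74 and 5.36 FPKM for siSIRT1 (difference 1.21, adjusted p = 0.000219). The largest fall was that of RBL2, encoding the pocket protein p130 that represses E2F targets in resting cells, at 9.61 and 9.97 FPKM in Control, then 6 and 6.01 FPKM in siSIRT1 (difference -0.62, adjusted p = 0.00148). By role, 6 of 10 origin firing genes were called higher, 6 of 18 fork genes, 3 of 8 nucleotide genes, 6 of 12 chromatin genes and 7 of 17 cell cycle regulators.

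Of 30 genes that act in mitosis, 11 (36.7%) were called higher and 1 lower, against 24.0% and 13.1% of all genes tested. The median difference was 0.18. AURKB, the kinase of the chromosomal passenger complex, had the largest rise, from 44.18 and 41.83 FPKM in Control to 69.12 and 63.92 FPKM in siSIRT1 (difference 0.62, adjusted p = 0.000262). CDC25C, the phosphatase that activates CDK1, had the largest fall, from 8.85 and 8.14 FPKM to 6.46 and 6.51 FPKM (difference -0.34, adjusted p = 0.0274). Whether the shares of the 3 lists differ was not tested.

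**Figure D5:**
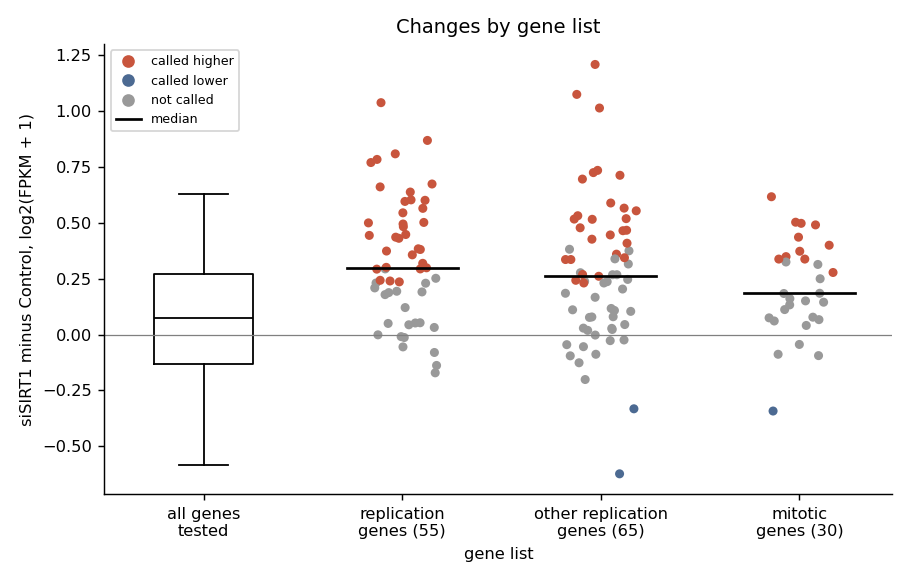
Differences, siSIRT1 minus Control on the log2(FPKM + 1) scale, for all genes tested (box with quartiles, whiskers at the 5th and 95th percentile) and for each gene of 3 lists (points; red called higher, blue called lower, grey not called; bar, median). The medians are 0.07 for all genes, 0.30 for the 55 replication genes, 0.26 for the 65 others and 0.18 for the 30 mitotic genes.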

How the data were processed

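PANC-1 total RNA was sequenced in 2 Control and 2 siSIRT1 libraries. The deposited files are 1 table for each library, with the authors' FPKM of 16878 genes to 2 decimals; the submitters' processing notes name Bowtie2, HISAT, RSEM and ChIPseeker without versions or roles, and the genome build and annotation are not given in the sources used here. FPKM divides by transcript length and library total, so a large change in abundant genes moves the value of every other gene.

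The 12191 genes that averaged 1 FPKM or more over the libraries, all 55 replication genes among them, were tested on log2(FPKM + 1) with limma 3.58.1 in R 4.3.3, using lmFit and eBayes (trend on) without covariates. P-values were two-sided and adjusted by the Benjamini-Hochberg method over all genes tested, with a threshold of 0.05. Fold changes on this scale understate those of weakly expressed genes. With 2 libraries a group, an exact permutation test cannot go below p = 0.333.

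The files give no counts. Depth was estimated from steps between the low FPKM values of 69 to 90 genes per library, out of 508 candidates, which gave 8800000 to 9140000 reads. Reads behind a gene were then estimated from these depths and the canonical transcript lengths of GENCODE 44 on GRCh37, less 80 bases. The estimates ran from 47 to 2248 reads for a replication gene in a library, with a median of 323. Whole counts could not be recovered, because the lengths used for genes with several transcripts are unknown. Standard errors, intervals and p-values rest on the spread between libraries, which eBayes draws toward that of genes at a similar level. They do not rest on a gene's own libraries alone. Pseudogenes and exon overlaps came from the same annotation, and promoter windows from RefSeq (GRCh38.p14).

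The 55 genes and all other lists were chosen with earlier results of these data known. Every replication gene is accounted for by role; in the other lists only the largest rise and the largest fall among called genes are named. Which promoter windows to print, and the windows' limits of 60 and 10 bases, were decided after values were seen. The alternatives tried were quantile normalization, median-of-ratios scaling, equal FPKM sums, a pseudocount of 0.1, all genes without a filter, a replicate block, fits without each library, eBayes without the trend, the study's thresholds, and, added after seeing the data, removal of each library's GC or length trend (lowess span 0.3). Only the limma fit was tested on simulated data.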

Additional observations from a re-analysis of the deposited data

How the results depend on the processing

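The 33 replication genes called higher kept a positive difference in all 13 alternative fits: of 429 values, 353 stayed called and 76 did not pass. The number called higher ran from 22 to 34 over these fits, with 22 and 31 as the lowest and highest without 1 library, and was 20 with the study's thresholds. None was called lower, except POLA2 with the GC trend removed (1 gene, difference -0.27, adjusted p = 0.0487). The median difference, 0.299 as reported, was 0.242 with equal FPKM sums, 0.228 with quantile normalization, 0.218 with median-of-ratios scaling, 0.218 with the GC trend removed, 0.201 with the length trend removed, and 0.293 to 0.321 without 1 library. Over all genes, 4521 calls became 2207 with the study's thresholds, 2744 without Control replicate 1 and 2691 without Control replicate 2 (2691 to 4608 without 1 library), and 3531 with no filter, where 16453 genes were tested. The share of calls that were higher was 64.8% as reported and 53.3%, 55.6% and 49.6% with quantile normalization, equal sums and median-of-ratios scaling. The difference of SIRT1 stayed called throughout, from -2.37 to -1.90. Fits without 1 library leave a lone library in a group, which is assumed to vary like the other group; the cause of these shifts was not tested.

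The replicate numbers come from the titles alone, with 2 pairs and a correlation of same-numbered deviations of 0.123. With the number as a replicate block, 34 of the 55 genes were called higher (DUT added, adjusted p = 0.0452) and 0 lower, the median difference stayed at 0.299, SIRT1 stayed at -1.96, and 5393 genes were called over the whole table.

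Uncalled genes near 0 changed sign as follows. ORC4 was at -0.028, -0.054, -0.051 and -0.020, MCM7 at -0.011, -0.036, -0.036 and -0.050, LIG1 at -0.014, -0.038, -0.031 and -0.039, and DNMT1 at -0.009, -0.034, -0.039 and -0.049 with equal sums, median-of-ratios scaling, quantile normalization and the GC trend removed. With the length trend removed, MCM7 was at -0.057, LIG1 at -0.040, GINS4 at -0.008 and PRIM2 at -0.007. GINS4 was at -0.011 with median-of-ratios scaling and -0.029 with the GC trend removed. Leaving out 1 library, the difference ran from -0.053 to 0.117 for ORC4, -0.004 to 0.091 for LIG1, -0.043 to 0.425 for RFC1, -0.129 to 0.111 for DBF4, -0.082 to 0.080 for POLD2 and -0.052 to 0.025 for RFC5. GINS3 without the variance trend, RFC1 without siSIRT1 replicate 1, and CDC45 and DUT without siSIRT1 replicate 2 gained a call.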
